A study of Mus musculus with 6 samples.

Results

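The CXC chemokine ligands described here were 6 genes, Cxcl1, Cxcl2, Cxcl3, Cxcl9, Cxcl10 and Cxcl16, taken by symbol from the gene list of a single-cell RNA sequencing study of mouse brain. Each symbol matched 1 row of the 31053 features, and all 6 genes had counts. The values were raw counts of unique molecular identifiers (UMIs), each UMI standing for 1 captured transcript, in CD45-positive leukocytes that had been sorted as living cells by flow cytometry. Cd300a-fl/fl Lyz2-cre mice, in which the promoter of the myeloid gene Lyz2 drives Cre, were set against Cd300a-fl/fl mice, which carry the same floxed alleles without Cre; both are called here by Lyz2-cre and fl/fl. The strain was C57BL/6 in all groups, and no age is given in the labels. Brains were taken 1 h or 3 h after reperfusion, which followed a 60 min occlusion with a filament placed in the right internal carotid artery, or from naive mice. The series text calls the earliest time 0 h, and the sample titles, which were followed here, call it naive. Each library pooled 3 brains, and each genotype and time had 1 library, so the spread between animals is not known.

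CXC chemokines are small proteins that draw leukocytes along a gradient. CXCL1, CXCL2 and CXCL3 bind the receptor CXCR2 and attract neutrophils, and their genes are classical targets of the transcription factor NF-kB. CXCL9 and CXCL10 are induced by interferons and attract T cells and natural killer cells through CXCR3. CXCL16 is made as a membrane protein, is released by the proteases ADAM10 and ADAM17, and binds CXCR6. Microglia, the resident macrophages of the brain tissue, border-associated macrophages of the meninges and perivascular spaces, and leukocytes that arrive from blood are all able to make such ligands after ischaemia. CD300A, the product of the floxed gene, is an inhibitory receptor of myeloid cells.

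The neutrophil attractants and the interferon-type ligands formed separate gene groups on chromosome 5 of the mouse genome (build GRCm38). Cxcl3 (ENSMUSG00000029379, chr5:90786103-90789600), Cxcl1 (ENSMUSG00000029380, chr5:90891241-90893115) and Cxcl2 (ENSMUSG00000058427, chr5:90903871-90905938) lay on the plus strand within 119836 bases, each with 4 exons. Cxcl9 (ENSMUSG00000029417, chr5:92321347-92328079) and Cxcl10 (ENSMUSG00000034855, chr5:92346638-92348889) lay on the minus strand within 27543 bases, also with 4 exons each, and 1415408 bases separated the end of Cxcl2 from the start of Cxcl9. Cxcl16 (ENSMUSG00000018920, chr11:70453983-70459984, minus strand, 5 exons) lay on chromosome 11.

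The sequence just before the start of each gene is shown because such stretches can hold sites of the factors named above. Binding was not measured. Neutrophil-like cells held the most Cxcl2 UMIs at 3 h and microglia-like cells the most Cxcl10 UMIs, and a link of these sequences to that was not tested. Sequences are from the RefSeq promoter table (GRCm38.p6), which held 5 of the 6 members, are written 5′ to 3′ on the strand of the gene, and end before the annotated first exon. Capitals mark matches to the kappa B consensus, the site of NF-kB, and to the core of the interferon-stimulated response element (ISRE), GAAANNGAAA.
Cxcl1 (chr5:90891135-90891240, plus strand): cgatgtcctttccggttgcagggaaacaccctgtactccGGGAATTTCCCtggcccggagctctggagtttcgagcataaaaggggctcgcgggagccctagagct
Cxcl2 (chr5:90903789-90903870, plus strand): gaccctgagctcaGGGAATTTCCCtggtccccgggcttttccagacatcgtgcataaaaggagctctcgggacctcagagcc
Cxcl3 (chr5:90785991-90786100, plus strand): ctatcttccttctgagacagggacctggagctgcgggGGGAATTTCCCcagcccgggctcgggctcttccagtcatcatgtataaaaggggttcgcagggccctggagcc
Cxcl9 (chr5:92328080-92328329, minus strand): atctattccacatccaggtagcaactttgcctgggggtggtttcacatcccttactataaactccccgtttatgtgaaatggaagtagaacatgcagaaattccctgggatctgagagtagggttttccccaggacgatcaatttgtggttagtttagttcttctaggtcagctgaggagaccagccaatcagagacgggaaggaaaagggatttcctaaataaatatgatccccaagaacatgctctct
Cxcl10 (chr5:92348890-92349139, minus strand): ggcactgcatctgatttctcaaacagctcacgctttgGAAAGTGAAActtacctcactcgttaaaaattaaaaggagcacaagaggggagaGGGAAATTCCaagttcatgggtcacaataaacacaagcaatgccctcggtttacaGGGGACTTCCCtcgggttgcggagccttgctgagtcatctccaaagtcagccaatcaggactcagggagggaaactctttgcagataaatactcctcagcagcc

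The stretches printed were 106, 82 and 110 bases for Cxcl1, Cxcl2 and Cxcl3, shorter than the windows of 250 bases. For Cxcl9 and Cxcl10 they were 250 bases. Both strands were searched. The same 10 letters, GGGAATTTCC, stood before all 3 neutrophil attractants, with an overlapping match on the opposite strand 1 base further on, and 28 of 32817 RefSeq promoter windows of 250 bases held them (0.0853%). The letters ATAAAAGG followed downstream of this site in the same 3 genes and were present in 1.54% of windows. The Cxcl10 window held kappa B matches at GGGAAATTCC and at GGGGACTTCC, the second overlapped by matches on both strands, and 1 ISRE core, GAAAGTGAAA. Across all windows, 7.25% held a kappa B match and 2.97% an ISRE core. The Cxcl9 window had no match to these letters, and none of the 5 windows held TTCNNNGAA, the core of the gamma-activated site, which 7.01% of windows held.

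The 6 libraries held 51005 cell barcodes and 35479437 to 48478866 UMIs each. After filters on genes and mitochondrial UMIs and removal of likely doublets, 47077 cells were used, 6719 to 9611 per library, with a median of 3902 to 5225 UMIs per cell. Pairs of libraries shared 12 to 30 barcodes, at most 0.412% of the smaller library. Cells were clustered without the 6 genes, and clusters were named from marker genes. Microglia-like cells made up 70.1% to 87.7% of each library and held a median of at least 10 of 11 microglia markers. Neutrophil-like cells numbered 150 to 1058, monocyte-like cells 109 to 816, border-associated macrophage-like cells 33 to 136 and conventional dendritic cell-like cells 41 to 70 per library. The last class depended on how the clusters fell: when the clustering was repeated in double precision, an alternative added after the data were seen, 193 of its 308 cells kept the name, against 37252 of 37255 microglia-like, all 3759 neutrophil-like, all 2188 monocyte-like and all 427 border-associated macrophage-like cells. Cd300a, the floxed gene, stood at 16.1, 9.74 and 9.86 CPM (UMIs of the gene for each 1000000 UMIs of all genes in the class) in Lyz2-cre neutrophil-like cells of naive, 1 h and 3 h libraries, against 175, 256 and 128 CPM in fl/fl cells (-3.85 ± 0.25 on the log2 scale, edgeR adjusted p = 3.12e-05). Microglia-like cells had it at 137, 171 and 163 CPM in Lyz2-cre, against 172, 212 and 206 CPM in fl/fl libraries (-0.38 ± 0.06, adjusted p = 0.0358).

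Levels are given as CPM, summed over the cells of a class in a library, with exact 95% Poisson intervals, which cover counting error only. Fold changes are on the log2 scale, where 1 is a doubling, with their standard errors, and come from edgeR's quasi-likelihood test of summed UMIs in 1 additive model of genotype and time. P-values were adjusted over all genes tested in the class (Benjamini-Hochberg), and a gene was called at an adjusted p below 0.05. With single libraries per group, the 2 genotypes stand in for replicates of a time, and p-values rest on how far the 6 libraries depart from the additive model.

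Cxcl2, the neutrophil attractant with the most UMIs, was concentrated in neutrophil-like cells themselves and in border-associated macrophage-like cells, and in both it was highest at 3 h. In neutrophil-like cells the level was 476, 1148 and 8252 CPM in naive, 1 h and 3 h Lyz2-cre libraries (interval at 3 h 8144 to 8360), and 776, 2193 and 7831 CPM in fl/fl libraries (7737 to 7926 at 3 h). Both genotypes had the same order, naive lowest and 3 h highest, and no 3 h value overlapped a value of an earlier time. The change at 3 h against naive was 4.03 ± 0.30 (adjusted p = 1.16e-05), or 17.3-fold in Lyz2-cre and 10.1-fold in fl/fl cells, and Cxcl2 also rose at 3 h against 1 h by 2.49 ± 0.28 (adjusted p = 0.000238). At 1 h against naive the change was 1.53 ± 0.27 (adjusted p = 0.0189), a call that was lost without either naive library, where the adjusted p reached 0.488. Of all 7695 genes tested in neutrophil-like cells, 29.5% were called at 3 h against naive, 26.4% at 3 h against 1 h and 0.988% at 1 h against naive.

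The time change of neutrophil-like cells went with a change of cell state. A cluster led by Retnlg and Cxcr2 held 90.7% of Lyz2-cre and 88.6% of fl/fl neutrophil-like cells at 3 h, where its Cxcl2 level was 9376 and 8812 CPM. Most naive and 1 h cells lay in a cluster led by Retnlg, Mmp9 and Hdc and in one that also expressed Ltf and Ngp. The latter are granule genes of less mature neutrophils. Within the Retnlg, Mmp9 and Hdc cluster, Cxcl2 was at 1231, 2841 and 1596 CPM in naive, 1 h and 3 h Lyz2-cre cells and at 1220, 2796 and 3751 CPM in fl/fl cells. The Ltf and Ngp cluster was lower, at 191, 150 and 77.7 CPM in Lyz2-cre and 456, 169 and 812 CPM in fl/fl cells. Most of the 3 h level was thus carried by cells of the 3 h cluster, while naive neutrophil-like cells of both clusters already held Cxcl2.

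**Figure D1:**
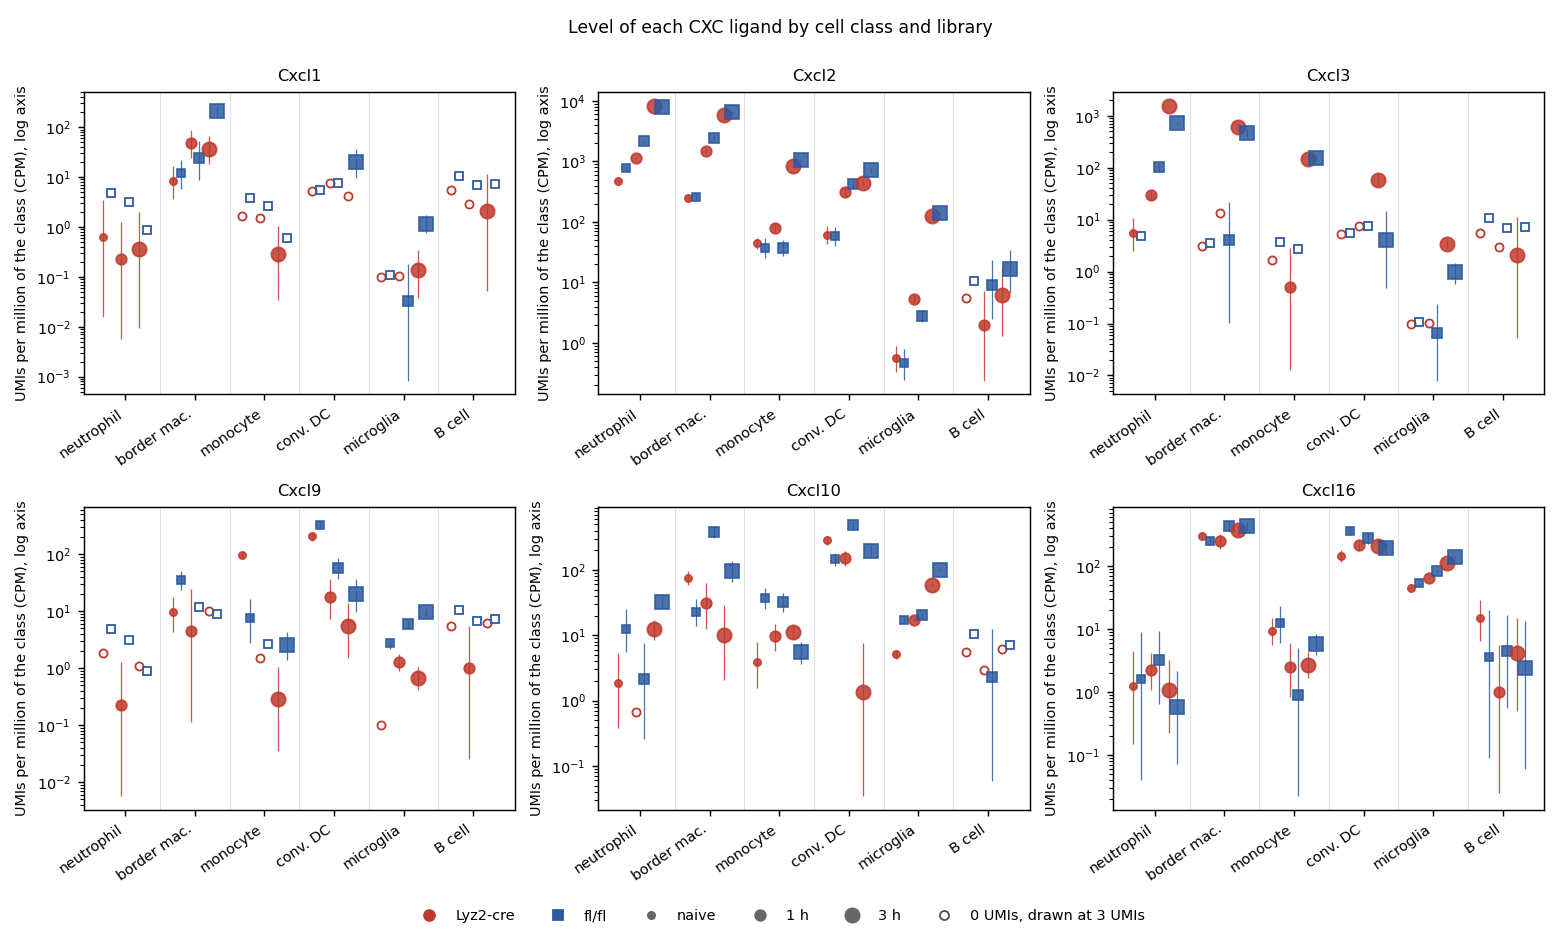
Level of each of the 6 ligands (CPM, log axis) in 6 cell classes of each library, with red circles for Lyz2-cre, blue squares for fl/fl, marker size growing from naive over 1 h to 3 h, bars for exact Poisson 95% intervals and open markers for 0 UMIs drawn at the level of 3 UMIs. Cxcl2 at 3 h reached 8252 and 7831 CPM in neutrophil-like cells and 5874 and 6633 CPM in border-associated macrophage-like cells, while Cxcl16 stayed between 0.589 and 3.17 CPM in neutrophil-like cells.

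Border-associated macrophage-like cells were few, 33 to 136 per library, and had Cxcl2 at 252, 1465 and 5874 CPM in naive, 1 h and 3 h Lyz2-cre libraries and at 260, 2485 and 6633 CPM in fl/fl libraries. The levels of each time stood apart from those of the other times in both genotypes. Cxcl2 rose at 1 h against naive (2.90 ± 0.31, adjusted p = 8.74e-06), at 3 h against naive (4.72 ± 0.33, adjusted p = 1.61e-08) and at 3 h against 1 h (1.82 ± 0.29, adjusted p = 0.000816), and these calls held without each library. Among 5184 genes tested in this class, 3.97%, 23.7% and 9.43% were called in the same comparisons. At 3 h a single sub-cluster, led by Pf4, Ccl24 and Ccl7, held 62.7% of the Lyz2-cre and 81.6% of the fl/fl cells, with Cxcl2 at 8430 and 7665 CPM. Neutrophil markers summed to 174 and 163 CPM in the 3 h cells of this class, from which 8.04 and 6.29 CPM of Cxcl2 would follow at the ratio of Cxcl2 to these markers in neutrophil-like cells.

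Monocyte-like cells had little Cxcl2 before 3 h. In Lyz2-cre libraries the level was 44.3 CPM in naive (interval 35.1 to 55.1), 80.1 at 1 h and 843 at 3 h (821 to 864), and in fl/fl libraries 37.6, 37.6 and 1065 CPM (1037 to 1094 at 3 h). The 1 h value was above the naive one in Lyz2-cre and level with it in fl/fl, and both 3 h values were far above all others. In the Lyz2-cre 1 h library 2 monocyte-like cells held at least 10 Cxcl2 UMIs. Their neutrophil markers summed to 41170 CPM, against 756 CPM in the other cells and 474 CPM in the 2 such Lyz2-cre naive cells. The 1 h value in Lyz2-cre thus includes cells rich in neutrophil markers. Cxcl2 rose by 4.75 ± 0.33 at 3 h against naive (adjusted p = 5.04e-05; 27.3% of 8951 genes called) and by 4.12 ± 0.30 at 3 h against 1 h (adjusted p = 0.000157; 19.6% called). At 1 h against naive its change of 0.63 ± 0.35 was not called (adjusted p = 0.389; 1.79% called), but it was with no filter on low counts (0.0478) and without the fl/fl 1 h library (1.11, adjusted p = 0.000481). Most of the 3 h UMIs, 5564 in Lyz2-cre and 4737 in fl/fl mice, lay in the cluster led by Vcan, Ccr2 and Saa3, genes of classical monocytes, at 909 and 1101 CPM, while the cluster led by Ace and Treml4, genes of patrolling monocytes, had 54.3 and 28.6 CPM. A small cluster led by Ace, Cd36 and Itgal had the highest level, 4224 CPM in 20 fl/fl cells. Of these, 15 held at least 10 Cxcl2 UMIs, as did 8 of the cluster's 13 Lyz2-cre cells. In all 3 h monocyte-like cells with at least 10, neutrophil markers summed to 3074 CPM in Lyz2-cre and 6625 CPM in fl/fl. The other cells had 1698 and 1835 CPM. Monocyte markers summed to 11060 and 11460 CPM, against 12660 and 12720 CPM in the other cells. Whether neutrophil RNA gave part of this Cxcl2 was not tested. The Vcan and Ccr2 cluster held 81.7% and 78.1% of monocyte-like cells at 3 h in Lyz2-cre and fl/fl mice, against 30.4% and 43.1% in naive mice.

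In microglia-like cells Cxcl2 was close to 0 before injury and remained low per cell at 3 h, but the relative change was the largest of the 5 classes tested. In naive, 1 h and 3 h libraries the level was 0.557 (17 UMIs), 5.26 and 124 CPM for Lyz2-cre, and 0.464 (13 UMIs), 2.80 and 142 CPM for fl/fl. The intervals of the 3 times did not overlap in either genotype, the lowest at 1 h being 2.23 to 3.46 CPM and the highest in naive 0.325 to 0.892 CPM. Cxcl2 rose by 8.10 ± 0.42 at 3 h against naive (adjusted p = 0.000549), 222-fold in Lyz2-cre and 306-fold in fl/fl cells, and by 5.03 ± 0.32 at 3 h against 1 h (adjusted p = 0.00092). At 1 h against naive the change was 3.06 ± 0.54 (adjusted p = 0.0268), and this call was lost without either naive library (adjusted p up to 0.121) and with no filter on low counts (0.12). Calls were common in microglia-like cells, with 26.7% of 12815 genes at 1 h against naive, 47.6% at 3 h against naive and 47.5% at 3 h against 1 h. Naive microglia-like cells lay mainly in clusters led by P2ry12 and Gpr34, and those of 3 h were spread over others, so the comparison is also one of clusters.

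Few microglia-like cells carried most of this Cxcl2. At 3 h, 60 of 7317 Lyz2-cre cells held at least 10 UMIs each and together 85.5% of the class's Cxcl2 UMIs, and 64 of 4742 fl/fl cells held 86.8%. At 1 h, 2 Lyz2-cre cells and 1 fl/fl cell had 10 or more. Of the high cells, 80.0% in Lyz2-cre and 87.5% in fl/fl libraries lay in the cluster led by Gdf15, Ccl3, Ccl4 and Csf1, of which they made up 7.58% and 5.0%. High cells had a median of 5294 and 5712 UMIs in Lyz2-cre and fl/fl libraries, against 3925 and 4274 in the remaining cells, and their summed microglia markers were lower, at 12550 and 11320 against 23690 and 20400 CPM. Neutrophil markers summed to 206 CPM in high cells against 275 CPM in the others of the Lyz2-cre library, and to 639 against 296 CPM in fl/fl. In neutrophil-like cells 563 of 997 Lyz2-cre and 578 of 1058 fl/fl cells had 10 or more Cxcl2 UMIs at 3 h.

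In droplet data free RNA gives UMIs in cells that do not express a gene, so Cxcl2 was set beside the neutrophil markers of each class. At 3 h, microglia-like cells had 124 CPM of Cxcl2 in Lyz2-cre and 142 in fl/fl libraries, where their neutrophil markers at the neutrophil ratio gave 12.6 and 11.7 CPM. Monocyte-like cells had 843 and 1065 CPM, with 91.8 and 122 CPM at that ratio. B cell-like cells, which should lack the gene, had 6.20 and 16.7 CPM (3 and 7 UMIs), with 6.19 and 7.65 CPM at that ratio. In naive microglia-like cells the observed 0.557 and 0.464 CPM stood beside 0.367 and 0.580 CPM at that ratio, so the naive level lay near that ratio and the 3 h level well above it.

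**Figure D2:**
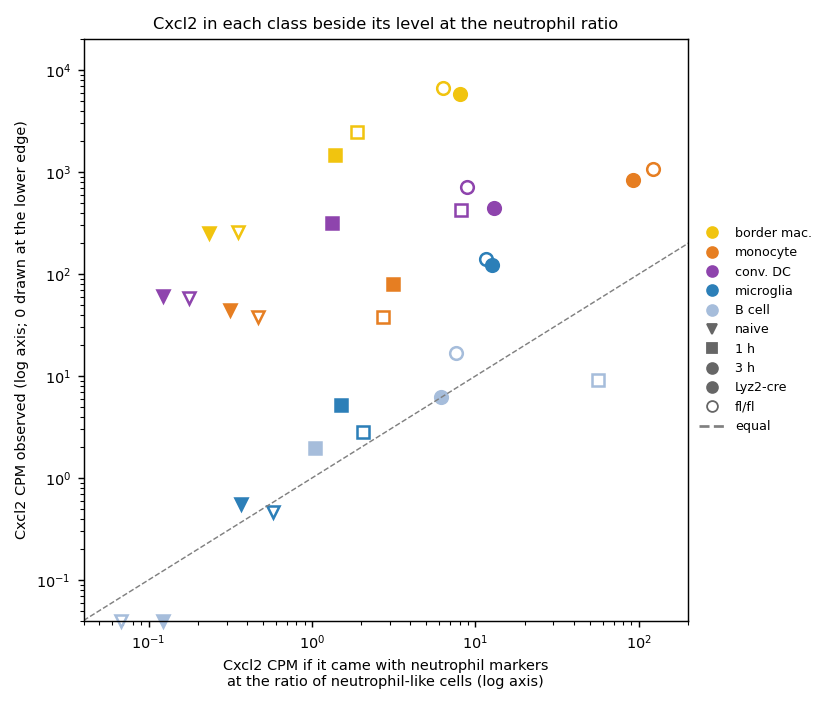
Observed Cxcl2 level (CPM, vertical log axis) of each class and library against the level its neutrophil-marker UMIs would give at the ratio found in neutrophil-like cells (CPM, horizontal log axis), filled for Lyz2-cre, open for fl/fl, with triangles for naive, squares for 1 h, circles for 3 h and a dashed line where both are equal. Border-associated macrophage-like cells at 3 h lay at 5874 and 6633 CPM against 8.04 and 6.29 CPM, and Lyz2-cre B cell-like cells at 3 h lay on the line at 6.20 and 6.19 CPM.

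Conventional dendritic cell-like cells had Cxcl2 at 61.6, 313 and 440 CPM in naive, 1 h and 3 h Lyz2-cre libraries and at 57.9, 427 and 712 CPM in fl/fl. The naive values were lowest in both genotypes. At 3 h against naive the change was 3.28 ± 0.23 (adjusted p = 4.49e-08; 14.9% of 6138 genes called) and at 1 h against naive 2.72 ± 0.24 (adjusted p = 8.59e-07; 6.61% called). These sums rested on few cells: 5 Lyz2-cre cells held 88.4% of the Cxcl2 UMIs at 3 h and 4 fl/fl cells 99.4%. With no doublet removal the 3 h levels were 124 CPM in Lyz2-cre and 269 CPM in fl/fl, and the 1 h change was no longer called (adjusted p = 0.0665). With the clustering in double precision Cxcl2 was at 41.6, 62.6 and 243 CPM in naive, 1 h and 3 h Lyz2-cre and at 28.7, 184 and 565 CPM in fl/fl libraries, and was called at 3 h against naive (3.47 ± 0.36, adjusted p = 5.46e-06) and at 1 h against naive (adjusted p = 0.0151), but with the listed genes kept for clustering neither call held (adjusted p = 0.371 and 0.492). T cell-like cells were not tested and had Cxcl2 at 8.68, 247 and 221 CPM in naive, 1 h and 3 h Lyz2-cre and at 2.23, 58.8 and 38.7 CPM in fl/fl libraries. After reperfusion, 3 cells of each Lyz2-cre and 1 cell of each fl/fl library had 10 or more UMIs. Microglia markers summed to 7405 CPM in the fl/fl 3 h cell, against 526 CPM in the other T cell-like cells of that library. In the high cells of the other libraries they summed to 0 to 166 CPM. For 3 h against 1 h in dendritic cell-like cells 6.24% of genes were called and Cxcl2 was not among them, although it was in the double-precision clusters (1.71 ± 0.33, adjusted p = 0.00401).

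To compare shares of cells, each cell was thinned to 2000 UMIs, leaving out shallower cells (170 and 114 neutrophil-like, 613 and 348 microglia-like and 7 and 3 B cell-like cells in Lyz2-cre and fl/fl at 3 h). Cxcl2 was then found in 81.6% and 81.8% of neutrophil-like cells at 3 h in Lyz2-cre and fl/fl mice (exact binomial intervals 78.8 to 84.2 and 79.2 to 84.2), against 32.5% and 37.6% in naive mice. Unthinned, these shares were 80.4% and 81.5% at 3 h, against 41.8% and 42.7% in naive mice. For border-associated macrophage-like cells the 3 h shares were 62.5% and 68.8%, for monocyte-like cells 28.2% and 29.5%, and for microglia-like cells 3.61% and 4.30% in Lyz2-cre and fl/fl mice. B cell-like cells gave 0.725% and 4.20%, so the fl/fl microglia share lay within the interval of a class that should lack the gene (1.38 to 9.53), at a median of 4290 UMIs in microglia-like against 3284 in B cell-like cells. The 7 Cxcl2 UMIs of fl/fl B cell-like cells were spread over 6 cells, whereas single microglia-like cells held up to 124. In naive mice 0.125% and 0.0369% of microglia-like cells had a UMI, against 0% of B cell-like cells in both genotypes.

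Cxcl3, a second CXCR2 ligand, was nearly absent before 3 h. The libraries held 9, 138 and 5524 Cxcl3 UMIs at naive, 1 h and 3 h in Lyz2-cre and 0, 103 and 3479 in fl/fl mice. In neutrophil-like cells the level was 5.56, 29.9 and 1522 CPM in Lyz2-cre and 0 (upper limit 5.85), 103 and 739 CPM in fl/fl mice at those times. The 3 h values were the highest in both genotypes, and the Lyz2-cre value was above the fl/fl one at 3 h but below it at 1 h. Of the 97 fl/fl UMIs at 1 h, 39 lay in the Retnlg, Mmp9 and Hdc cluster and 1 in the Ltf and Ngp cluster. These clusters held 81.9% and 13.1% of the cells, so few cells outside them carried most of that level. Cxcl3 rose at 3 h against naive (adjusted p = 0.000474; 274-fold in Lyz2-cre cells and at least 155-fold in fl/fl cells, against a floor of 3 UMIs in the library) and by 4.38 ± 0.64 at 3 h against 1 h (adjusted p = 0.00333). After thinning, 43.4% of Lyz2-cre and 23.5% of fl/fl neutrophil-like cells held Cxcl3 at 3 h, and 97.5% and 96.4% of these also held Cxcl2.

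Monocyte-like cells had Cxcl3 at 148 CPM in Lyz2-cre and 155 CPM in fl/fl libraries at 3 h, against 0 UMIs in both naive libraries, at least 88.8-fold and 41.2-fold higher, and the change was called (adjusted p = 1.18e-06). Border-associated macrophage-like cells had 601 and 469 CPM at 3 h against 0 UMIs in naive, at least 190-fold and 131-fold higher (adjusted p = 1.98e-10). Both classes exceeded the level at the neutrophil ratio, 16.9 and 11.5 CPM in monocyte-like and 1.48 and 0.594 CPM in border-associated macrophage-like cells. In microglia-like cells Cxcl3 was at 3.38 and 0.964 CPM at 3 h against 0 UMIs in naive, at least 34.3-fold and 9.0-fold higher (adjusted p = 0.000717, lost with DESeq2 at 0.0643). Here the neutrophil ratio gave 2.33 and 1.10 CPM, against observed intervals of 2.74 to 4.11 CPM in Lyz2-cre and 0.589 to 1.49 CPM in fl/fl cells. Cxcl3 was in 0.462% and 0.228% of thinned microglia-like cells at 3 h, against 0.725% and 0% of B cell-like cells, so the Lyz2-cre share was not above that of a class that should lack the gene.

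**Figure D3:**
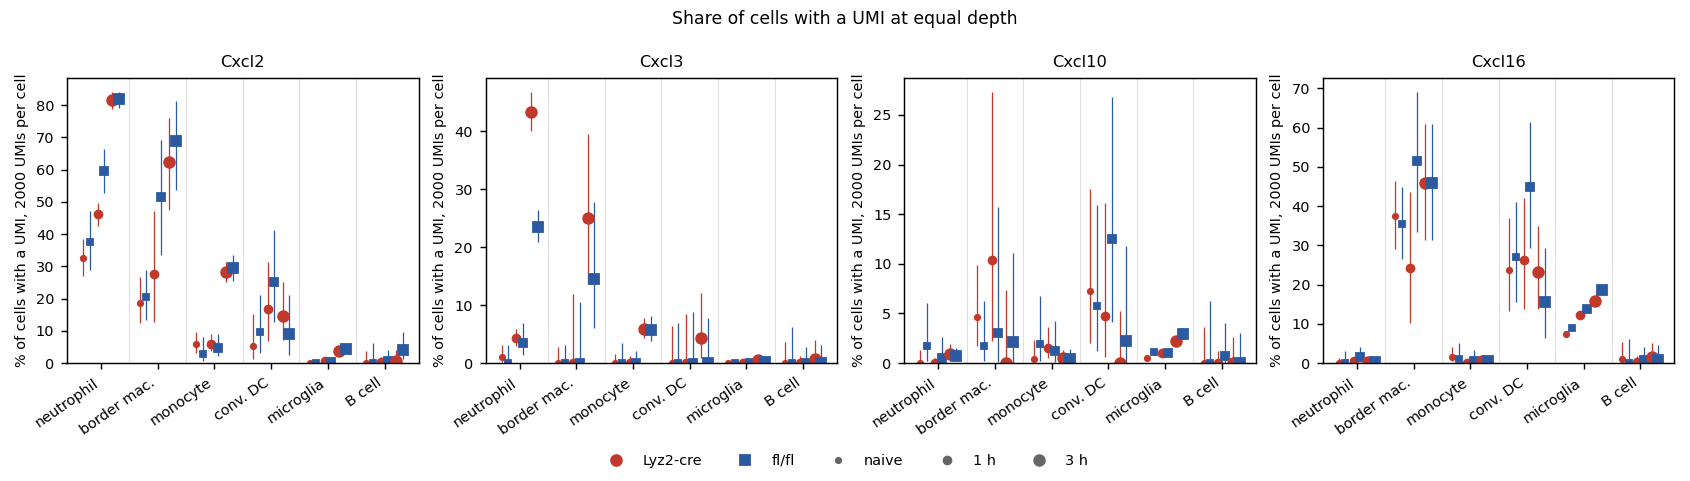
Percent of cells with at least 1 UMI of Cxcl2, Cxcl3, Cxcl10 and Cxcl16 in each class and library after thinning to 2000 UMIs, with exact binomial 95% intervals. At 3 h Cxcl2 was in 81.6% of Lyz2-cre and 81.8% of fl/fl neutrophil-like cells and Cxcl16 in 15.8% and 18.5% of microglia-like cells.

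Cxcl1, the remaining CXCR2 ligand, was scarce in these leukocytes, with 9, 12 and 19 UMIs per library at naive, 1 h and 3 h in Lyz2-cre and 10, 7 and 108 in fl/fl mice. Border-associated macrophage-like cells held the most Cxcl1 in the 4 libraries with at least 10 UMIs, at 8.42, 49.0 and 36.9 CPM in Lyz2-cre and 11.9, 24.1 and 216 CPM in fl/fl mice. Each value came from few cells: 70 of the 74 UMIs of the fl/fl 3 h library in this class were in 1 cell, as were all 11 of the Lyz2-cre 1 h library. Its change at 3 h against naive was called (3.61 ± 0.60, adjusted p = 0.00225), but without the fl/fl 3 h library it was 1.89 with an adjusted p of 0.328. Neutrophil-like cells had at most 1 Cxcl1 UMI in any library.

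Cxcl10, the interferon-type ligand with the most UMIs, had most of its UMIs in microglia-like cells after reperfusion, although its level in CPM was higher in some smaller classes. In microglia-like cells the level was 5.11 CPM in naive (interval 4.34 to 5.98), 17.2 at 1 h and 59.2 at 3 h (56.5 to 62.1) in Lyz2-cre libraries, and 16.9 (15.4 to 18.5), 20.2 and 99.7 CPM (95.5 to 104) in fl/fl libraries. In both genotypes 3 h was highest, and the fl/fl naive level was about that of the Lyz2-cre library at 1 h. Cxcl10 rose by 3.02 ± 0.45 at 3 h against naive (adjusted p = 0.0200) and by 2.01 ± 0.43 at 3 h against 1 h (adjusted p = 0.0428). Both calls were lost without either 3 h library (adjusted p up to 0.318 and 0.393) and with no filter on low counts (0.0625 and 0.12). At 1 h against naive its change of 1.02 ± 0.46 was not called (adjusted p = 0.231) except without the fl/fl naive library (1.72, adjusted p = 0.0376).

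Like Cxcl2, Cxcl10 was held by few microglia-like cells. Cells with at least 10 UMIs numbered 5, 17 and 42 at naive, 1 h and 3 h in Lyz2-cre and 18, 17 and 38 in fl/fl mice, and held 75.0% and 81.5% of the class's Cxcl10 UMIs at 3 h in Lyz2-cre and fl/fl. After thinning, 0.517%, 1.05% and 2.22% of Lyz2-cre and 1.11%, 1.00% and 2.96% of fl/fl microglia-like cells had a UMI, against at most 0.746% of B cell-like cells, 1 cell in the fl/fl 1 h library. Unthinned, the 3 h shares were 2.86% in Lyz2-cre and 4.20% in fl/fl mice. At 3 h, 8.26% of Lyz2-cre microglia-like cells with Cxcl2 also held Cxcl10 (interval 5.12 to 12.5), against 1.996% of those without (1.67 to 2.37). The same shares were 8.995% (5.33 to 14.01) against 2.69% (2.22 to 3.22) in fl/fl mice. In both libraries the shares did not overlap in their intervals, and cells with Cxcl2 were also the deeper ones before thinning.

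Neutrophil-like cells had Cxcl10 at 1.85, 0 and 12.4 CPM in naive, 1 h and 3 h Lyz2-cre libraries and at 12.7, 2.12 and 32.7 CPM in fl/fl. The change at 3 h against naive was called (2.20 ± 0.51, adjusted p = 0.00759), as was that at 3 h against 1 h (adjusted p = 0.000395), yet 10 cells of each genotype held all UMIs at 3 h. Conventional dendritic cell-like cells had 285, 152 and 1.38 CPM in Lyz2-cre and 146, 490 and 198 CPM in fl/fl libraries. Single cells decided these values: 1 cell held 144 of 162 UMIs in the Lyz2-cre naive library and 1 cell held 91 of 98 UMIs in the fl/fl 3 h library. With the clustering in double precision the same class had 35.7, 0 and 2.70 CPM in Lyz2-cre and 4.79, 524 and 0 CPM in fl/fl libraries, so its Cxcl10 level depended on the clustering. No change of Cxcl10 was called in conventional dendritic cell-like, monocyte-like or border-associated macrophage-like cells.

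Cxcl9 was present in a handful of cells. Libraries held 299, 48 and 26 UMIs at naive, 1 h and 3 h in Lyz2-cre mice and 289, 201 and 222 in fl/fl mice. In conventional dendritic cell-like cells the level was 206, 17.99 and 5.51 CPM in Lyz2-cre and 331, 58.1 and 20.2 CPM in fl/fl mice, highest in naive and lowest at 3 h in both genotypes. It fell by 4.41 ± 0.33 on the log2 scale at 3 h against naive (adjusted p = 7.51e-08) and by 2.75 ± 0.29 at 1 h against naive (adjusted p = 1.05e-05), and both calls held without each library. In the naive libraries 1 cell held 93 of the 117 UMIs in Lyz2-cre and 1 cell held 109 of the 177 UMIs in fl/fl, so the level of naive mice came from few cells. The result depended on whether these cells were named dendritic. In the double-precision clusters the class had Cxcl9 at 17.8, 0 and 2.70 CPM in naive, 1 h and 3 h Lyz2-cre and at 21.6, 76.4 and 24.6 CPM in fl/fl libraries, too few UMIs to be tested, and with the listed genes kept for clustering the falls at 3 h and 1 h against naive were not called (adjusted p = 0.0985 and 0.285). The call at 3 h against 1 h (-1.66 ± 0.45, adjusted p = 0.0333) was lost without the Lyz2-cre 3 h, the Lyz2-cre 1 h or the fl/fl 1 h library, with adjusted p up to 0.498, and with DESeq2, the stricter cell filter or the listed genes kept for clustering (0.562).

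In microglia-like cells Cxcl9 was at 0, 1.28 and 0.682 CPM in naive, 1 h and 3 h Lyz2-cre libraries and at 2.71, 5.86 and 9.59 CPM in fl/fl libraries, in 0 to 5 and 5 to 11 cells. Its change at 3 h against naive, 2.05 ± 0.80, was not called (adjusted p = 0.117), although it was when the fl/fl naive library or either 1 h library was left out (adjusted p = 0.00953 to 0.043). Of 178 UMIs in the fl/fl 1 h library, 110 were in 1 cell, and of 173 UMIs in monocyte-like cells of the Lyz2-cre naive library, 168 were in 1 cell. Cxcl9 was therefore measured in too few cells for its order among classes to be read.

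Cxcl16 differed from the other members in being spread over many cells. In microglia-like cells it was at 45.3 CPM in naive (interval 43.0 to 47.8), 64.5 at 1 h and 110 at 3 h (106 to 114) in Lyz2-cre libraries, and at 53.3 (50.6 to 56.1), 83.2 and 137 CPM (132 to 142) in fl/fl libraries. Summed over the class, the levels rose with time in both genotypes, and at each time the Lyz2-cre level was below the fl/fl one. At 3 h this order of the genotypes did not hold in each cluster. The change was 0.68 ± 0.08 at 1 h against naive (adjusted p = 0.000401), 1.403 ± 0.08 at 3 h against naive (adjusted p = 2.19e-06) and 0.72 ± 0.08 at 3 h against 1 h (adjusted p = 0.000121), and every call held without each library. At 3 h it was 2.42-fold the naive level in Lyz2-cre and 2.58-fold in fl/fl cells. Thinned cells with a UMI made up 7.37%, 12.2% and 15.8% in Lyz2-cre and 9.004%, 13.8% and 18.5% in fl/fl mice, against 0% to 1.45% of B cell-like cells. Unthinned, the 3 h shares were 25.9% in Lyz2-cre and 32.5% in fl/fl mice.

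In CPM, Cxcl16 was higher than in microglia-like cells in border-associated macrophage-like cells, at 297, 245 and 372 CPM in naive, 1 h and 3 h Lyz2-cre and 251, 429 and 428 CPM in fl/fl libraries, and in conventional dendritic cell-like cells, at 144 to 359 CPM. In neither class was a change with time called. At 3 h against naive the change was 0.65 ± 0.24 in border-associated macrophage-like cells (adjusted p = 0.0605), and it was called with RLE size factors (0.0422), no filter on low counts (0.0464), no doublet removal (0.0129), the listed genes kept (0.0129) and the clustering in double precision (0.0239). In conventional dendritic cell-like cells it was -0.15 ± 0.27 (adjusted p = 0.761), and 0.91 ± 0.25 in the double-precision clusters (adjusted p = 0.0146). Monocyte-like cells had 0.894 to 12.5 CPM and neutrophil-like cells 0.589 to 3.17 CPM. At the microglia ratio, the microglia-marker UMIs of these classes gave 2.31 to 5.20 and 1.32 to 7.59 CPM. Monocyte-like values above 5.20 CPM were 9.41 and 12.5 in naive Lyz2-cre and fl/fl libraries and 5.70 in the fl/fl 3 h library. In the double-precision clusters fl/fl naive monocyte-like cells had 83.7 CPM of Cxcl16, against 12.5 CPM otherwise, the class holding 2197 cells in place of 2188. The protease genes that release CXCL16, Adam10 and Adam17, were tested in all 5 classes and neither was called at 3 h against naive.

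Among the sorted CD45-positive cells, the class that held the most UMIs of each ligand followed from level and cell number together. Cells without CD45 were not measured. Neutrophil-like cells held the most Cxcl2 UMIs in 6 of 6 libraries, with 65.6%, 83.9% and 65.9% at naive, 1 h and 3 h in Lyz2-cre and 61.3%, 68.1% and 70.7% in fl/fl mice. Monocyte-like cells held 17.1% and 14.4% of Cxcl2 at 3 h in Lyz2-cre and fl/fl mice and microglia-like cells 10.6% and 7.83%, while border-associated macrophage-like cells held 5.11% and 6.06% at 3 h, against 20.3% and 27.3% in naive mice. For Cxcl3 at 3 h, neutrophil-like cells held 75.4% and 72.1% and microglia-like cells 1.79% and 0.575%.

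Microglia-like cells led for Cxcl16 and, in most libraries, for Cxcl10. They held 34.6%, 74.6% and 91.3% of Cxcl10 UMIs at naive, 1 h and 3 h in Lyz2-cre and 57.0%, 63.3% and 87.6% in fl/fl mice, and led in 5 of 6 libraries. The Lyz2-cre naive library was the exception, where conventional dendritic cell-like cells held 162 UMIs and microglia-like cells 156. T cell-like cells held 10.4% of Cxcl10 in the Lyz2-cre and 22.02% in the fl/fl naive library, at 37.1 and 68.1 CPM. Of Cxcl16, microglia-like cells held 75.7%, 91.6% and 91.5% in Lyz2-cre and 76.8%, 91.2% and 90.8% in fl/fl mice, and led in 6 of 6 libraries.

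**Figure D4:**
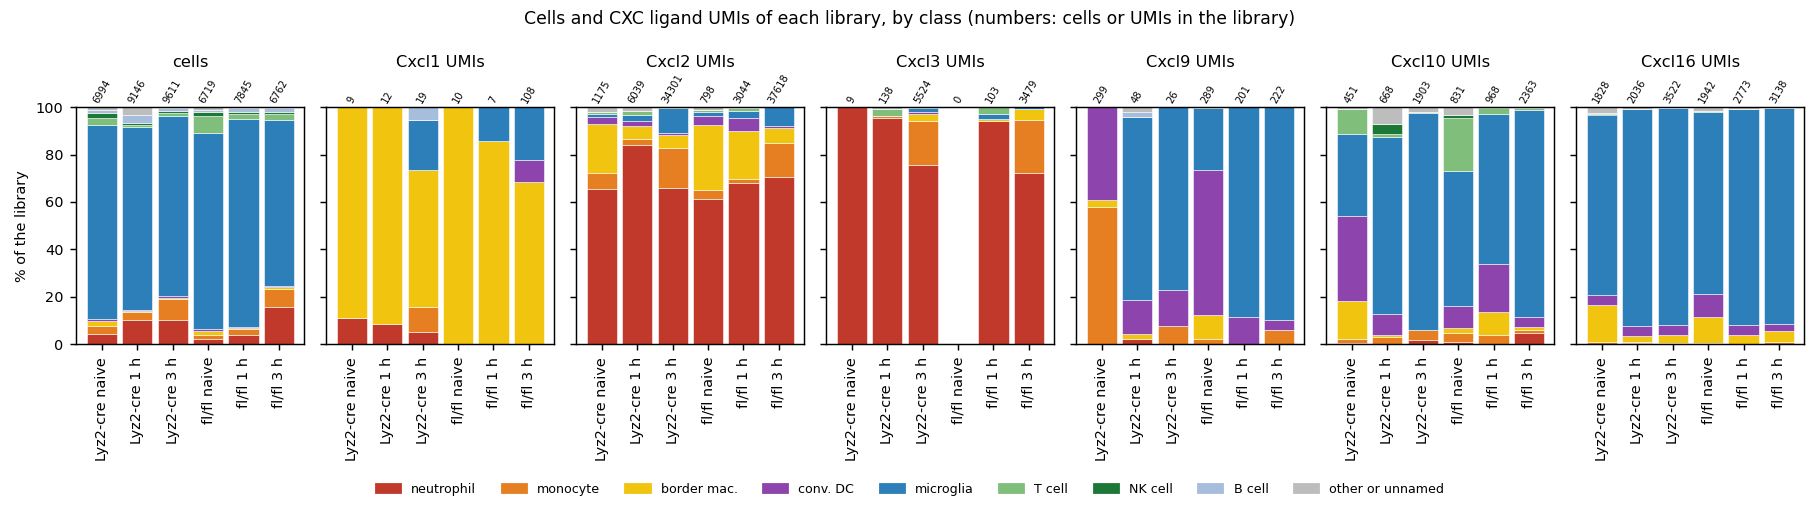
Stacked percent of cells and of the UMIs of each ligand by class (vertical axis, percent of the library), 1 bar per library in the order Lyz2-cre naive, 1 h, 3 h and fl/fl naive, 1 h, 3 h, with the number of cells or UMIs above each bar; Cxcl3 had 0 UMIs in the fl/fl naive library. Neutrophil-like cells held 65.9% of Cxcl2 in the Lyz2-cre and 70.7% in the fl/fl library at 3 h, and microglia-like cells 91.3% and 87.6% of Cxcl10.

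Whether the time change differed between classes was tested in 1 model of neutrophil-like, monocyte-like and microglia-like sums with a term for each library. At 3 h against naive, the Cxcl2 change of neutrophil-like cells was smaller than that of microglia-like cells by 3.94 ± 0.47 on the log2 scale (difference -3.94, adjusted p = 8.28e-05; 17.9% of 11539 genes called). That of monocyte-like cells was also smaller than that of microglia-like cells (-3.28 ± 0.51, adjusted p = 0.00133; 11.9% called). The Cxcl16 change of monocyte-like cells differed from that of microglia-like cells by -2.53 ± 0.41 (adjusted p = 9.64e-05), Cxcl16 being at 2.73 and 5.70 CPM at 3 h in Lyz2-cre and fl/fl monocyte-like cells, against 9.41 and 12.5 CPM in naive ones. All 3 differences were called without each library and in the double-precision clusters, where that of Cxcl16 was -4.29 ± 0.79 (adjusted p = 0.0135). There the Cxcl10 change of monocyte-like cells was also called as different from that of microglia-like cells (-4.72 ± 1.02, adjusted p = 0.031).

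With all 6 libraries and the settings given above, no neutrophil attractant was called between the genotypes in any class tested. For Lyz2-cre against fl/fl over the 3 times, Cxcl2 differed by 0.07 ± 0.28 in microglia-like cells (adjusted p = 0.951), by 0.16 ± 0.25 in monocyte-like cells (adjusted p = 0.986) and by -0.38 ± 0.22 in neutrophil-like cells (adjusted p = 0.911). Calls appeared under some settings: in microglia-like cells Cxcl2 was called higher in Lyz2-cre without either 3 h library (0.80 and 0.79, adjusted p = 0.00279 and 0.0031), and in monocyte-like cells when cells with markers of other classes were left out (1.44, adjusted p = 0.0078). Cxcl10 was lower in Lyz2-cre than in fl/fl microglia-like cells at each time but was not called (-0.89 ± 0.36, adjusted p = 0.54), nor was it in neutrophil-like cells (-1.86 ± 0.44, adjusted p = 0.488), where it was called with no filter on low counts (0.00754) and without the Lyz2-cre 3 h or either 1 h library (adjusted p = 0.00569 to 0.0373). At 3 h the order of the genotypes in microglia-like cells differed between clusters. In the cluster led by Gdf15, Lyz2-cre cells were higher than fl/fl cells in Cxcl10 (221 against 141 CPM) and Cxcl16 (335 against 264 CPM). A cluster led by Rcan1 had Cxcl10 at 78.8 against 482 CPM. One led by P2ry12 and Sparc had Cxcl16 at 40.0 against 53.1 CPM. The Gdf15 cluster held 8.65% of Lyz2-cre and 23.6% of fl/fl cells, and its part in the class levels was not tested. Cxcl16 in microglia-like cells was the only member called, at -0.36 ± 0.06 (adjusted p = 0.0476). That call was lost without the naive or 1 h library of either genotype (adjusted p up to 0.217) and under the stricter cell filter (0.0517). Few genes were called between the genotypes with these settings. Of those tested they were 0.46% in microglia-like, 0.0559% in monocyte-like, 0.026% in neutrophil-like, 0.0386% in border-associated macrophage-like and 0.196% in conventional dendritic cell-like cells. More were called in microglia-like cells with DESeq2 or no filter on low counts, and the recovery of genotype differences was not simulated.

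Within microglia-like cells Cxcl2 and Cxcl16 were highest in the same cluster at 3 h in both genotypes. The cluster led by Gdf15, Ccl3, Ccl4 and Csf1 held 8.65% of Lyz2-cre and 23.6% of fl/fl microglia-like cells at that time. There, in Lyz2-cre and fl/fl cells, Cxcl2 was at 883 and 430 CPM, Cxcl10 at 221 and 141 CPM and Cxcl16 at 335 and 264 CPM. In the cluster led by Slc1a3 and Tmem119, Cxcl2 was at 7.57 and 4.49 CPM and Cxcl10 at 1.29 and 7.70 CPM at 3 h in Lyz2-cre and fl/fl cells. Among microglia-like clusters with at least 20 cells in a library, the highest Cxcl10 level at 3 h in fl/fl mice was 482 CPM, in 77 cells of a cluster led by Rcan1, Sgk1 and Pmp22 of which 2 held 10 or more UMIs, and the same cluster was at 78.8 CPM in Lyz2-cre mice. In the cluster led by P2ry12, Sparc and Olfml3, Cxcl16 was still at 40.0 and 53.1 CPM at 3 h in Lyz2-cre and fl/fl cells, where Cxcl2 was at 7.21 and 9.37 CPM.

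**Figure D5:**
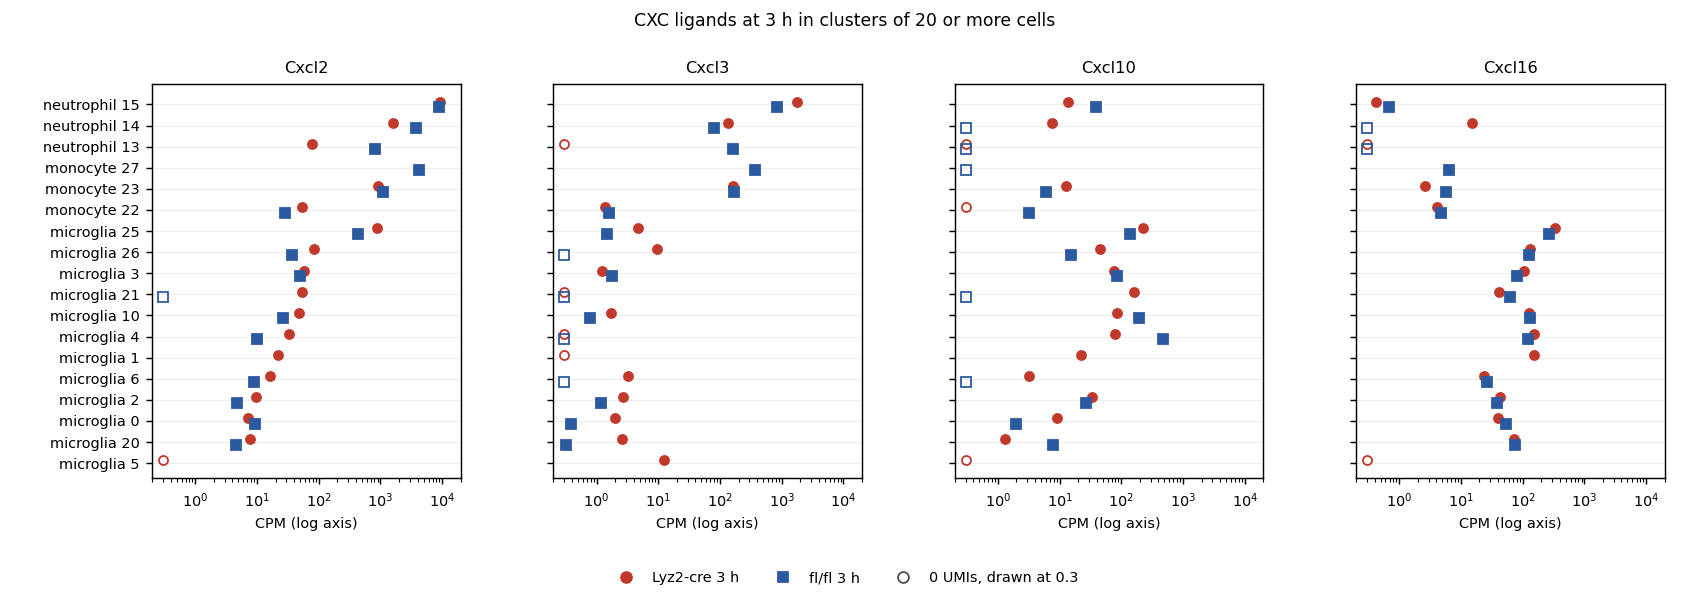
Levels of Cxcl2, Cxcl3, Cxcl10 and Cxcl16 (CPM, log axis) at 3 h in each cluster of neutrophil-like, monocyte-like and microglia-like cells with at least 20 cells, with Lyz2-cre and fl/fl as separate markers and open markers for 0 UMIs. Cxcl2 reached 9376 CPM in Lyz2-cre and 8812 CPM in fl/fl cells of the main 3 h neutrophil cluster, and 883 and 430 CPM in the microglia cluster led by Gdf15.

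The receptor of the neutrophil attractants rose in neutrophil-like cells. Cxcr2 in neutrophil-like cells was at 612, 471 and 2420 CPM in naive, 1 h and 3 h Lyz2-cre libraries and at 704, 857 and 2154 CPM in fl/fl, and rose by 2.09 ± 0.26 at 3 h against naive (adjusted p = 0.000163). Cxcr1, the related receptor, rose there by 3.87 ± 0.49 (adjusted p = 0.000259). Of 8 CXC receptors, 3 were tested in neutrophil-like cells, 2 rose and none fell (median 2.09, against -0.06 over all genes, of which 29.5% were called); in microglia-like cells 5 were tested, 3 rose and Cxcr3 fell, all below 6 CPM (47.6% of all genes called). Cxcr3, which binds CXCL9 and CXCL10, was at 175, 156 and 64.0 CPM in naive, 1 h and 3 h T cell-like cells of Lyz2-cre and at 281, 68.6 and 96.2 CPM in fl/fl libraries. Cxcr6, which binds CXCL16, was at 572, 270 and 121 CPM in the same cells of Lyz2-cre and at 550, 324 and 294 CPM in fl/fl libraries. T cell-like cells were not tested.

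Of 9 further CXC ligands, 3 were tested in border-associated macrophage-like cells and all 3 rose at 3 h against naive (median 1.98, against -0.05 over all genes, of which 23.7% were called). Pf4, the platelet factor that also marks these macrophages, was at 1068, 2547 and 4173 CPM in naive, 1 h and 3 h Lyz2-cre and at 928, 2269 and 2274 CPM in fl/fl libraries (1.77 ± 0.28, adjusted p = 0.000197). Ppbp, another platelet chemokine, was at 1.05, 97.9 and 73.8 CPM in Lyz2-cre and at 0, 8.02 and 8.73 CPM in fl/fl libraries. Its fl/fl values and its Lyz2-cre naive value were no higher than 3 UMIs would give. Cxcl14 rose by 1.98 ± 0.37. In microglia-like cells 3 of these ligands were tested and none was called at 3 h against naive (47.6% of all genes called). Cxcl13, which attracts B cells, had 0 to 56 UMIs per library, Cxcl12 had 3 to 14, Cxcl5 0 to 12 and Cxcl15 0 to 3, and Cxcl17 had none, which allows at most 3 UMIs. Cxcl11 was not analysed here.

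Genes of NF-kB signalling, a list of 21 that includes its inhibitors and cytokine targets, moved in different directions in the classes in which Cxcl2 rose. At 3 h against naive, 14 of 21 rose and 2 fell in microglia-like cells (median 0.39, against -0.02 over all genes, 47.6% of which were called), 11 rose and 1 fell in neutrophil-like cells (1.03, against -0.06; 29.5% called), and 6 of 19 rose and 1 fell in border-associated macrophage-like cells (0.58, against -0.05; 23.7% called). In monocyte-like cells, where Cxcl2 rose, 4 of 21 rose and 11 fell (median -0.46, against -0.02; 27.3% called). Il1b, which encodes interleukin-1 beta, was at 891, 1597 and 8022 CPM in naive, 1 h and 3 h neutrophil-like cells of Lyz2-cre and at 1209, 4480 and 7419 CPM in fl/fl mice (3.20 ± 0.33, adjusted p = 5.76e-05). In monocyte-like cells Il1b rose by 2.79 ± 0.27 and Ier3, an early response gene, by 3.88 ± 0.33, while Il1a fell by 2.24. In microglia-like cells Il1b rose by 4.29 ± 0.59 and Tnf by 1.36 ± 0.20, Tnf standing at 132 and 182 CPM at 3 h in Lyz2-cre and fl/fl mice, against 43.2 and 91.6 CPM in naive mice. In conventional dendritic cell-like cells 4 of 19 rose and 2 fell (0.28, against -0.01; 14.9% called).

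Genes of interferon signalling, a list of 27 that includes interferons, their receptors and response genes, moved both ways in microglia-like cells, where Cxcl10 rose. There 4 of 26 tested rose and 4 fell at 3 h against naive (median 0.07, against -0.02 over all genes, of which 47.6% were called); Stat2, a transducer of type I interferon signals, rose by 0.81 ± 0.13 and Socs1, an inhibitor of these signals, fell by 0.75. Neutrophil-like cells, by comparison, had 16 of 24 higher and none lower (median 1.28, against -0.06; 29.5% called). Isg15, a ubiquitin-like interferon target, was there at 95.7, 299 and 813 CPM in naive, 1 h and 3 h Lyz2-cre and at 178, 497 and 859 CPM in fl/fl libraries (2.97 ± 0.25, adjusted p = 1.83e-05). In border-associated macrophage-like cells 7 of 18 were lower and none higher (23.7% of all genes called), in conventional dendritic cell-like cells 6 of 25 lower and 1 higher (14.9%), and in monocyte-like cells 6 of 25 lower and 3 higher (27.3%). Ifit3, an antiviral interferon target, was at 111, 118 and 6.88 CPM in naive, 1 h and 3 h conventional dendritic cell-like cells of Lyz2-cre and at 347, 260 and 62.7 CPM in fl/fl mice (-2.78 ± 0.32, adjusted p = 2.68e-05), but this call was lost with the clustering in double precision (adjusted p = 0.528), where 1 of 19 interferon genes tested in conventional dendritic cell-like cells fell and none rose. The same clusters gave 5 of 22 lower and none higher in border-associated macrophage-like cells. In the joint model, 14 of 25 interferon genes changed more in neutrophil-like than in microglia-like cells and none less (median 1.30, against -0.08 over all genes, of which 17.9% were called).

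Transcripts of CXC ligands are short-lived and are cleared with the help of RNA-binding proteins such as tristetraprolin, the product of Zfp36, and the nuclease Regnase-1, the product of Zc3h12a. A list of 6 genes that act on such transcripts held Zfp36, Zfp36l1, Zfp36l2, Zc3h12a, Khsrp and Elavl1, the last not a decay factor. In neutrophil-like cells 3 of them rose at 3 h against naive, Zfp36l1 by 2.19 ± 0.26 and Zc3h12a by 1.70 ± 0.34 among them. None fell (median 0.75, against -0.06 over all genes, of which 29.5% were called). In microglia-like cells Zc3h12a rose by 0.77 ± 0.10 and Zfp36 fell by 0.41, with Zfp36 at 2256, 783 and 1720 CPM in naive, 1 h and 3 h Lyz2-cre and 2805, 1024 and 1857 CPM in fl/fl libraries. In monocyte-like cells 2 fell and none rose (27.3% of all genes called).

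The genes whose levels were most like those of each member were found by Pearson's r of log2 levels over 18 sums, the 3 classes of each of 6 libraries, among 7116 genes. These points share libraries and the differences between classes, and r is given as a description. Cxcl2 was most like Il1rn (0.9752), which encodes the interleukin-1 receptor antagonist, then Ndel1 (0.962) and Cd300lf (0.958). For Cxcl3 they were Rhov (0.944) and Tes (0.928), for Cxcl16 Mfhas1 (0.974), Ttc3 (0.967) and Herpud1 (0.963), and for Cxcl10 Nup153 (0.844), Gbp5 (0.839) and Yy1 (0.826). Cxcl9 and Cxcl1, with few UMIs, had lower values, up to 0.738 for Bambi and 0.702 for Atp6v1d.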

How the data were processed

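The authors deposited raw UMI counts per gene and cell barcode for each of the 6 libraries (10x Genomics 3′ kit, version 3, per the labels' protocols), made with Cell Ranger 3.0.2 on mm10, per the submitters' processing notes. Each library pooled 3 brains, held 35479437 to 48478866 UMIs and was not replicated. Barcodes with fewer than 300 genes or above 10% mitochondrial UMIs were removed, leaving 50634 of 51005. The automatic doublet threshold of Scrublet marked 433 barcodes, nearly all in 1 library, and was not used; instead the highest doublet scores were removed, 0.8% per 1000 barcodes (3557 barcodes). Cells were clustered with scanpy 1.11.5 (2000 variable genes without the 6 ligands and the listed genes, 30 components, 15 neighbours, Leiden resolution 1.5), and a cluster that mixed border-associated macrophage and dendritic cell markers was clustered again (resolution 1). A cluster was named where at least 3 markers of a class were each found in 10% of its cells, the 10 genes of highest fold held no more markers of any other class, and the first marker among these was of that class. This last condition was set after the clusters had been seen, and clusters of 268 and 10 cells stayed unnamed.

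UMIs were summed per library and class and tested with edgeR 4.0.16 (TMM, filterByExpr, robust quasi-likelihood fit, genotype and time as terms, 2 residual degrees of freedom), with Benjamini-Hochberg adjustment over all genes tested. Classes needed 20 cells in each library. Genes are named by a fixed rule: the members in each comparison, up to 4 called genes per list that moved the same way in both genotypes, and the receptor and ligand lists whole. The members and lists were chosen with earlier results of these data known. On counts simulated at these depths for 3 h against naive, 54% of changes of 1 log2 unit were recovered in microglia-like, 19% in neutrophil-like and 27% in monocyte-like cells, and 98%, 83% and 91% of changes of 2 units. Alternatives were DESeq2 1.42.0, other size factors, no filter on low counts, a stricter cell filter (500 genes, 5% mitochondrial UMIs), no doublet removal, listed genes kept for clustering, cells with 2 or more markers of another class left out, and each library left out. Clustering in double precision (components rounded to 4 decimals) was added after the data were seen, since the naming of dendritic cell-like clusters changed with the arithmetic. Gene positions are from GENCODE annotation of GRCm38. Tools ran on Python 3.11.15 and R 4.3.3.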

Additional observations from a re-analysis of the deposited data

Results flagged for a closer look

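The change between naive and 3 h differed between cell classes for 2 members, by the test of the difference itself. Cxcl2 changed less in neutrophil-like than in microglia-like cells (log2 difference -3.94) and less in monocyte-like than in microglia-like cells (-3.28), its naive level being 476 and 776 CPM in Lyz2-cre and fl/fl neutrophil-like cells, against 0.557 and 0.464 CPM in microglia-like cells. The Cxcl16 change of monocyte-like cells minus that of microglia-like cells was -2.53. Within monocyte-like cells the change was not called (-1.25 ± 0.45, adjusted p = 0.0648) and rested on 1 to 29 Cxcl16 UMIs per library. It was called with no filter on low counts (-1.19, adjusted p = 0.0443) and in the double-precision clusters (-2.99, adjusted p = 0.00704). In the double-precision clusters the difference was -4.29.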

How the results depend on the processing

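Of the called member fold changes and the uncalled ones described in the report, edgeR's RLE size factors kept 47 of 48 on the same side of the threshold and in the same direction, the stricter cell filter 43 of 45, DESeq2 42, no doublet removal 42, the clustering in double precision 41 and the listed genes kept for clustering 38. With the listed genes kept, the exceptions were Cxcl2 and Cxcl9 in conventional dendritic cell-like cells, Cxcl2 at 3 h against 1 h turning to -0.1582, and Cxcl16 in border-associated macrophage-like cells. In double precision, Cxcl16 at 3 h against naive was newly called in 3 classes, turning to 0.9066 in conventional dendritic cell-like cells, where it ranged from -0.6563 to 0.4685 without single libraries. The Cxcl2 genotype difference in microglia-like cells turned to -0.0115 with no doublet removal, and without single libraries it ranged from -0.26 to 0.80. In monocyte-like cells Cxcl2 ranged without single libraries from -0.23 to 1.11 at 1 h against naive and from -0.24 to 0.71 between genotypes. The highest of the genotype range in microglia-like cells and of the 1 h range in monocyte-like cells were called, as the report says beside them. Neutrophil-like cells led for Cxcl3 in 5 libraries with no doublet removal, and microglia-like cells led for Cxcl10 in 6 with no doublet removal or the stricter filter.

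Counts of called genes moved more, and the cause was not tested. With DESeq2 they were 2050 at 1 h against naive and 128 between genotypes in microglia-like cells (3427 and 59 with edgeR), 106 at 1 h, 1270 at 3 h and 751 at 3 h against 1 h in monocyte-like cells, 1365 at 3 h and 1073 at 3 h against 1 h in neutrophil-like cells, 97, 352 and 140 in border-associated macrophage-like cells, and 134, 205, 103 and, between genotypes, 3 in conventional dendritic cell-like cells. With no filter they were 298 between genotypes in microglia-like cells, 603 at 1 h and 55 between genotypes in monocyte-like, 206 and 30 in neutrophil-like, 319 and 22 in border-associated macrophage-like cells, and 578 at 3 h against 1 h and 63 between genotypes in conventional dendritic cell-like cells. Without cells that held markers of other classes they were 14 at 1 h, 532 at 3 h, 340 at 3 h against 1 h and 12 between genotypes in monocyte-like and 235, 1072 and 934 in neutrophil-like cells; border-associated macrophage-like and conventional dendritic cell-like cells were too few for this setting. With no doublet removal they were 127 at 1 h in neutrophil-like cells, 371 at 1 h and 1 between genotypes in border-associated macrophage-like cells, and 210 at 1 h and 237 at 3 h against 1 h in conventional dendritic cell-like cells. With the listed genes kept for clustering they were 415 at 1 h and 9 between genotypes in border-associated macrophage-like and 7 between genotypes in conventional dendritic cell-like cells. With the clustering in double precision, added after the data were seen, they were 368 at 1 h and 1 between genotypes in border-associated macrophage-like and 3 between genotypes in conventional dendritic cell-like cells.

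Without single libraries, the counts at 1 h against naive, 3 h against naive, 3 h against 1 h and between genotypes ran from 759 to 4810, 2804 to 6122, 3424 to 6087 and 3 to 284 in microglia-like cells, from 29 to 371, 1134 to 2961, 647 to 1931 and 9 to 49 in monocyte-like cells, from 33 to 440, 1082 to 2842, 1127 to 2222 and 2 to 261 in neutrophil-like cells, from 155 to 343, 540 to 1683, 257 to 817 and 11 to 43 in border-associated macrophage-like cells, and from 118 to 580, 265 to 941, 126 to 426 and 8 to 42 in conventional dendritic cell-like cells. The counts of differences from microglia-like cells ran from 433 to 1674 for monocyte-like and from 1014 to 2309 for neutrophil-like cells. No paired analysis was possible because each genotype and time had 1 library. Time, pooling and library cannot be told apart within a genotype, naive mice had no sham operation in the labels, and sorting and homogenisation were the same step for all groups as far as the labels say. Cxcl1 and Cxcl9 rest on a few cells, and depth limits what can be said of them.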

Other observations

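Cxcl10 went opposite ways with time in the 2 genotypes in 2 classes, which was not tested because each value is 1 library. In monocyte-like cells it was at 3.87, 9.63 and 11.3 CPM in naive, 1 h and 3 h Lyz2-cre libraries and at 37.6, 32.2 and 5.504 CPM in fl/fl libraries, in 3 to 7 cells each. In border-associated macrophage-like cells it was at 75.8, 31.2 and 10.1 CPM in Lyz2-cre and at 22.7, 381 and 96.1 CPM in fl/fl libraries, where 1 cell held 87 of the 95 UMIs at 1 h and all 33 at 3 h. With the clustering in double precision it was at 218, 36.0 and 9.35 CPM in Lyz2-cre and at 38.9, 456 and 343 CPM in fl/fl border-associated macrophage-like cells, and at 3.83, 37.9 and 11.3 CPM in Lyz2-cre and 104, 32.2 and 5.504 CPM in fl/fl monocyte-like cells.

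A sub-cluster of 15 conventional dendritic cell-like cells was led by Cxcl9, Ifit3 and Cxcl10, although neither ligand was used for clustering; with the clustering in double precision most of this Cxcl9 lay outside the class. Natural killer cell-like cells held Cxcr3 at 124, 97.6 and 59.1 CPM in naive, 1 h and 3 h Lyz2-cre libraries and at 153, 39.0 and 54.4 CPM in fl/fl libraries.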
